A study of Mus musculus with 65 samples.

Results

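Insertions with a net gain of 2 to 19 bp are a minor class of the repair products left at Cas9 cut sites, and are described here across every sequenced cut site of the study. Members were all reads whose recorded net length was a gain of 2 to 19 bp, so they were chosen by the measured length itself, and their lengths are given as a description with no test. They were 12510 reads, out of 325230 reads with an indel and 828461 reads in all, and 12501 of them came from libraries that had received an sgRNA. The length limits fell in a continuous spectrum. In the sgRNA libraries 164866 reads had a net gain of 1 bp, just outside the lower limit, and 9722 had 2 bp, just inside it, while 56 reads had 19 bp and 61 had 20 bp at the upper limit.

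Genomic DNA came from liver hepatocytes of Rosa-LSL-Cas9-EGFP mice, which carry a Cre-dependent cassette for Cas9 and the fluorescent protein EGFP at the Rosa locus, after retro-orbital injection of adeno-associated virus (AAV). The labels do not say how Cre was supplied, how old the animals were or whether several sites were read from 1 animal. Times are in weeks post injection (wpi). The 44 sgRNA libraries fall under 3 labels: KO, with 1 library at 1 wpi, 17 at 2 wpi and 3 at each of 3 and 8 wpi; PTG, with 4 at each of 2, 3 and 6 wpi; and coinjection, with 4 at each of 2 and 3 wpi. The labels do not spell out PTG, and PTG and coinjection hold the 4 Lats1 and Lats2 sites only. The other 21 libraries, 1 per cut site at 2 wpi, are from mice of the same genotype given AAV with an empty sgRNA cassette (EV). An arm at a given site and time is represented by 1 library, so time, arm and animal cannot be told apart, and Fisher's exact tests below compare 2 libraries and not 2 conditions. Libraries held 2290 to 27974 reads. Intervals are 95% intervals (Clopper-Pearson for shares, Newcombe for differences) that cover counting error only, because the labels describe no molecular identifiers and PCR copies of 1 molecule are then counted apart.

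Cas9 leaves a double-strand break that cells which are not dividing, such as most hepatocytes, rejoin mainly by non-homologous end joining. When Cas9 leaves a short 5' overhang, polymerases of the X family can fill it in before ligation, which duplicates the bases next to the cut. Longer insertions can also come from copying of nearby or unrelated DNA, and small losses of template bases can mark ends that were trimmed before they were joined. A gain that is not a multiple of the codon length shifts the reading frame of a coding exon. The deposited tables give template positions and lengths and not the inserted bases, so an allele here is a set of template positions with a net length, and 1 allele may hold several sequences. All recorded junctions span 1 template position per site, taken as the cut.

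The class was made up mainly of insertions of 2 bp placed at the cut without loss of template. Of the 12501 member reads with sgRNA, 77.8% gained 2 bp, 12.1% gained 3 bp and 3.78% gained 4 bp. Net gains of 2 to 6 bp held 95.8% of the reads, and 7 to 19 bp held 520 reads (4.16%). Pure insertions, in which every template base on both sides of the cut was kept, were 11625 reads (93.0%). Insertions with template loss, in which bases were also missing beside the cut and more were added than lost, were 876 reads (7.01%).

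Both kinds had different length spectra. Among pure insertions 80.8% gained 2 bp and 98.9% gained 2 to 6 bp, leaving 132 reads with 7 to 19 bp. Among insertions with template loss 37.8% gained 2 bp and 44.3% gained 7 to 19 bp, and their median net gain was 5 bp, against 2 bp for pure insertions. Accordingly the pure share was 96.6% at 2 bp, 95.6% at 3 bp, 94.1% at 4 bp and 87.2% at 5 bp. It was 56.5% at 6 bp (48 of 85 reads), 96.6% at 7 bp (28 of 29 reads) and 18.2% at 8 bp (8 of 44 reads). No pure read was found at 9, 12 or 16 bp. The lengths of 7 bp and more rest on few reads from few libraries, 5 libraries at 7 bp and 1 library at 9 bp.

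**Figure D1:**
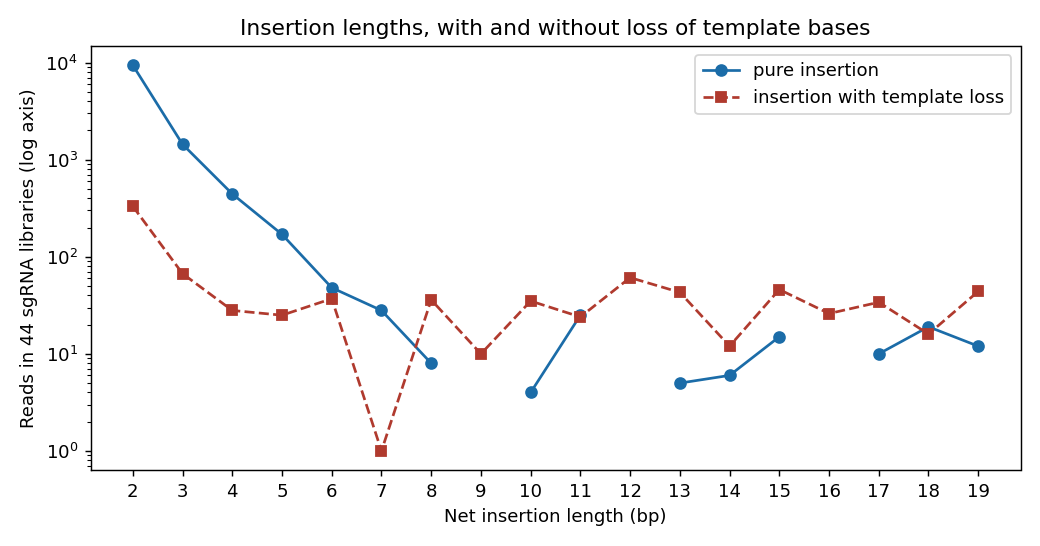
Reads of each net insertion length from 2 to 19 bp (horizontal axis, bp) summed over the 44 sgRNA libraries (vertical axis, log scale), as pure insertions (circles) and insertions with template loss (squares). Lengths with no read have no point. Pure insertions drop from 9391 reads at 2 bp to 48 at 6 bp, while insertions with template loss run between 1 and 61 reads at 7 to 19 bp.

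The empty vector libraries held almost none of these insertions. In EV, 9 reads were members among 377 indel reads and 262414 reads in all, and 16 of the 21 EV libraries had none. In those without a member, a count of 0 allows a share of up to 3 reads of the library, and over all 21 EV libraries that limit lay between 0.0117% and 0.131% of reads. Kif11-sg1 had 5 of the reads, and Kif11-sg2, Kif11-sg3, EGFP-sg1 and Lats1-sg2 had 1 each, so 7 of the 9 came from Kif11 sites. The 9 reads were of 7 alleles, and 7 of 7 were also present in an sgRNA library of the same site. Most of these alleles were pure gains of 2 or 3 bp. Such gains were present in 43 and 33 of the 44 sgRNA libraries, so a match was likely in advance. Over indel reads, members were 3.85% of the 324853 with sgRNA and 2.39% of the 377 in EV (1.10 to 4.48), and at Kif11-sg1 10.1% in KO and 10.6% in EV (3.55 to 23.1). The EV libraries held 4 to 47 indel reads each, and the share of indel reads was not tested between sgRNA and EV. Where these reads came from was not tested.

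Each of the 21 sites had a higher share of member reads with sgRNA than in EV at 2 wpi (Fisher's exact test, two-sided, Benjamini-Hochberg over 126 tests of 21 sites and 6 indel classes, largest adjusted p = 1.63e-07). In the same family 99.2% of tests passed in this direction, so the count is not particular to these insertions. As a share of all reads, the 21 sgRNA libraries (KO, or coinjection at the Lats sites) ran from 0.291% to 12.2%, with a median of 1.90%. The 21 EV libraries ran from 0% to 0.0697%, and no sgRNA library overlapped with them. With sites averaged within their target, the share was 2.52 ± 2.28% with sgRNA and 0.00698 ± 0.0141% in EV (SD, n = 9 targets). The difference was 2.51 ± 2.27 points, and 9 of 9 targets had a positive one (p = 0.00391 by a two-sided exact sign-flip test, the smallest that 9 targets allow). The targets may share animals, which the labels do not say, so they may not be independent.

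By target, Kif11, a kinesin that pushes spindle poles apart in mitosis (chromosome 19, 37376382 to 37421863, mm10), had the highest mean share, 8.15% of reads with sgRNA and 0.0426% in EV. Hnf4a, a nuclear receptor that maintains hepatocyte gene expression (chromosome 2, 163506811 to 163572907), had 3.38% and Polg, the subunit that synthesises mitochondrial DNA (chromosome 7, 79446231 to 79467911), had 2.47%. Neither had a member read in EV. EGFP, a transgene, had 2.23% with sgRNA and 0.0119% in EV.

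Fah, which catalyses the final step of tyrosine catabolism (chromosome 7, 84585159 to 84605942), had 1.87% of reads and Polg2, the accessory subunit of the mitochondrial polymerase (chromosome 11, 106768204 to 106779537), had 1.69%. Lats2 (chromosome 14, 57689662 to 57746212) and Lats1 (chromosome 10, 7681200 to 7716461), kinases of the Hippo pathway that restrain growth, had 1.34% and 1.20% in coinjection. Tfam, which packages mitochondrial DNA (chromosome 10, 71225468 to 71238328), had the lowest mean share, 0.317%. The cut sites were not placed within the genes here, because no guide or amplicon sequence was used.

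Taken over indel reads, the share of insertions of 2 to 19 bp differed by up to 58.3-fold between libraries. Over the 44 sgRNA libraries its median was 2.30%, with a range from 0.353% at Tfam-sg2-3 (0.266 to 0.458) to 20.5% at Kif11-sg2. The low end is set by 1 library: of the 15882 indel reads at Tfam-sg2-3, 14880 had a loss of 20 bp or more. The next lowest share was 0.904%, at Lats2-sg1 in PTG at 3 wpi. At 2 wpi Kif11-sg2 had 20.5% (19.4 to 21.6), followed by Polg-sg2 with 10.6% (9.79 to 11.4) and Kif11-sg1 with 10.1% (9.62 to 10.5), and the intervals of the last 2 overlapped. Lats2-sg2 in coinjection had 5.78% (5.19 to 6.41), and Kif11-sg3 with the 3 Hnf4a sites lay between 3.56% and 4.16%. The other 12 sites above Tfam-sg2-3 lay between 0.953% at Lats2-sg1 and 2.62% at Polg2-sg1. The title of the KO library of Tfam-sg2-3 names sg2-3 while its treatment label names sg2, and both labels of its EV library name sg2-3. Of the 20 pairs of neighbours in this order, 15 had overlapping intervals, and the 5 without overlap were below Kif11-sg2, Kif11-sg1, Lats2-sg2, Hnf4a-sg2 and Lats2-sg1.

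**Figure D2:**
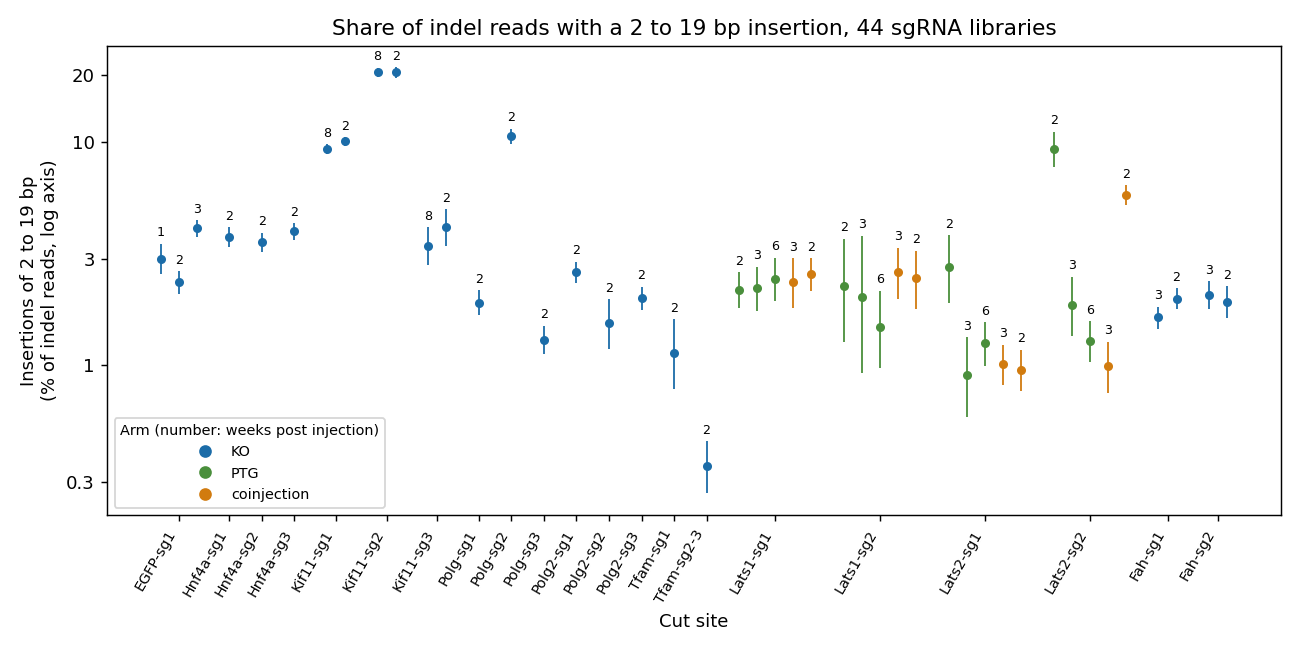
Insertions of 2 to 19 bp as a percentage of indel reads (vertical axis, log scale) in each of the 44 sgRNA libraries, by cut site (horizontal axis). Points are coloured by arm, the number above each point is its time in weeks post injection, and bars are exact 95% intervals for counting error. Both Kif11-sg2 libraries sit at about 20.5%, and Tfam-sg2-3 sits at 0.353%.

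The sites of Polg and of Kif11 differed by intervals that did not overlap, and those of Hnf4a and of Fah had overlapping ones. Polg-sg2 had 10.6% of indel reads, against 1.91% at Polg-sg1 and 1.30% at Polg-sg3. Kif11-sg2 and Kif11-sg1 had 20.5% and 10.1%, and Kif11-sg3 had 4.16%. The 3 Hnf4a sites had 3.74%, 3.56% and 3.97% for sg1, sg2 and sg3, and the Fah sites had 1.99% and 1.93%. Intervals did not overlap either between Lats2-sg2 and Lats2-sg1 in coinjection (5.78% and 0.953%) or between Tfam-sg1 and Tfam-sg2-3 (1.14% and 0.353%). Polg2-sg1 (2.62%) did not overlap with Polg2-sg3 (1.99%), which overlapped with Polg2-sg2 (1.54%). The Lats1 sites in coinjection overlapped (2.55% and 2.45%). The 4 libraries of Kif11-sg1 and Kif11-sg2 together held 5788 member reads, 46.3% of those with sgRNA, so pooled counts lean on these sites.

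As a description over the 21 sites at 2 wpi, where every share is taken over the same indel reads, the share of members had Spearman's rho of 0.0169 with the share of 1 bp insertions (Pearson's r 0.00106). It had rho of 0.504 with the share of insertions of 20 bp or more (r 0.213), and rho of -0.273 with the percentage of reads edited (r -0.206). Single sites with many 1 bp insertions lay at either end of the order. Tfam-sg1 had 90.3% of its indel reads as 1 bp insertions and 1.14% as members, and Kif11-sg1 had 64.7% and 10.1%. Hnf4a-sg1 and Hnf4a-sg3 had 13.3% and 83.8% of indel reads as 1 bp insertions, with 3.74% and 3.97% as members. For each net 2 bp insertion read there were 2.56 (Kif11-sg2 at 8 wpi) to 87.6 (Tfam-sg1) 1 bp insertion reads, with a median of 26.1 over 41 libraries.

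In most libraries 1 allele, the pure 2 bp insertion, led the class. It was present in 43 of 44 sgRNA libraries and had the most member reads in 42, including 2 ties, named after their values were seen. At Tfam-sg2-3 it tied at 16 reads with a 3 bp gain that lost 1 bp, and at Lats1-sg2 in PTG at 3 wpi, with 9 member reads, at 4 reads with a net gain of 19 bp that lost 11 bp after the cut. In the 42 libraries with at least 20 member reads, the leading allele held a median of 75.7% of member reads (28.6 to 100). A library had a median of 6.5 distinct member alleles (1 to 21). At Kif11-sg2 the pure insertions of 2, 3 and 4 bp had 1196, 183 and 64 reads at 8 wpi and 745, 142 and 55 reads at 2 wpi. At Polg-sg2 the same 3 alleles had 448, 75 and 36 reads, a similar order of falling counts with length.

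In the other 2 libraries, both in coinjection at 2 wpi, longer gains led. At Lats2-sg1 in coinjection at 2 wpi no read had a net gain of 2 bp, 80 of 86 member reads had a pure gain of 4 bp and 6 had 3 bp. The same 4 bp allele had 5 reads in coinjection at 3 wpi, 0, 5 and 0 reads in PTG at 2, 3 and 6 wpi, and 0 in EV. At Lats1-sg2 in coinjection at 2 wpi 19 of 45 member reads had a net gain of 4 bp and 18 had 2 bp. Over the 32 libraries with both at least 20 member reads and a pure 3 bp read, there was a median of 6.49 pure 2 bp reads for each pure 3 bp read (0 to 47). In the other 10 such libraries no pure 3 bp read was found.

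In 4 sgRNA libraries an allele with template loss was among the named ones, with 21 to 36 reads. At Hnf4a-sg3 the third allele by reads lost 14 bp after the cut and gained 33 bp, a net 19 bp, in 36 reads (0.294% of indel reads). At Hnf4a-sg2 it lost 32 bp before the cut and gained 34 bp in 24 reads, and at Hnf4a-sg1 it lost 1 bp after the cut and gained 13 bp in 22 reads. At Fah-sg1 it lost 16 bp before and 19 bp after the cut and gained 43 bp, with 0 reads at 3 wpi and 21 at 2 wpi. None of these alleles was found in EV.

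Over all 876 sgRNA reads with template loss, the bases lost ran from 1 to 53 bp (median 3) and the bases inserted from 3 to 69 bp (median 13). Loss lay only before the cut in 427 reads (48.7%), only after it in 362 (41.3%) and on both sides in 87 (9.93%). Before and after follow the template as the authors' positions run, and the strand of each guide was not known here. Exactly 1 bp was lost in 293 reads (33.4%), and 189 of these had a net gain of 2 bp, that is 3 bp inserted. Another 256 reads (29.2%) lost 13 to 53 bp and gained 16 to 69 bp, so a short net length can stand for a long replacement. Loss on both sides had a median of 16 bp lost and 26 bp inserted, against 3 and 6 bp for loss before the cut only and 2 and 13 bp for loss after it only.

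**Figure D3:**
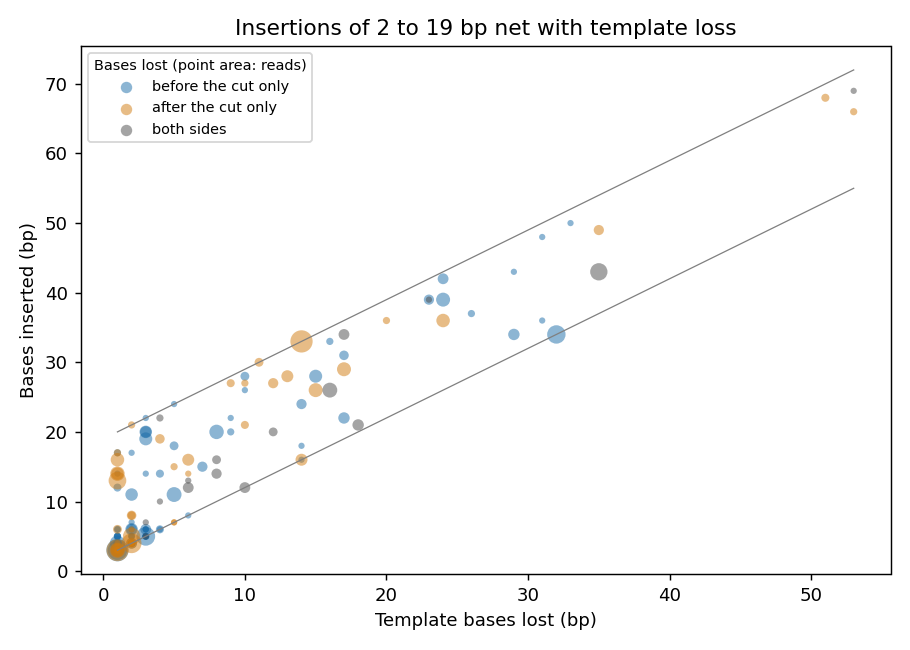
Bases inserted (vertical axis, bp) against template bases lost (horizontal axis, bp) for each allele with template loss in each sgRNA library, coloured by the side of the cut that lost bases, with point area rising with reads. The grey lines are net gains of 2 and 19 bp, the limits of the class. The losses reach 53 bp and the insertions 69 bp.

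The pure share varied between libraries, also within a site. In the 42 libraries with at least 20 member reads its median was 93.5%, with a range from 44.6% at Tfam-sg2-3 (25 of 56 reads) to 100%, and 25 of these 42 lay above 90%. Polg2-sg1 and Polg2-sg3 had 334 and 261 member reads at 2 wpi and all were pure, and 7 of 44 libraries had no read with template loss. Low shares were found at Fah-sg2 (63.5% at 3 wpi and 77.6% at 2 wpi) and Lats1-sg1 in coinjection (78.3% at 3 wpi and 76.9% at 2 wpi). Lats2-sg1 in coinjection was low at 3 wpi only (71.3%, with 100% at 2 wpi). Lats2-sg2 in PTG was low at 6 wpi only (73.6%, with 99.1% at 2 wpi and 97.7% at 3 wpi). At Tfam-sg2-3, an amplicon named for 2 guides, 3 of the 56 member reads lost 53 bp, as an allele of 2 reads and one of 1 read, which were named after their values were seen.

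The pure share was set against that of both neighbouring insertion classes in the same libraries at 2 wpi, a comparison chosen after the data were seen. Averaged by target over all 21 sites, members were pure in 88.2% of reads and 1 bp insertions in 98.0%. The difference was -9.74 ± 7.79 points (SD, n = 9 targets) and was positive for 1 target of 9 (adjusted p = 0.00781 over 2 two-sided exact sign-flip tests). Tfam, with Tfam-sg2-3 kept in, was at -26.9 points. Over the 20 sites with at least 20 reads of both classes, members were pure in 91.1% and insertions of 20 bp or more in 70.8%. That difference was 20.3 ± 11.3 points, positive for 9 of 9 targets (adjusted p = 0.00781 by the same exact sign-flip test). The site left out was Tfam-sg2-3, where members were pure in 25 of 56 reads (44.6%) and insertions of 20 bp or more in 10 of 11 (90.9%). With it, chosen after seeing the data, the difference was 15.97 ± 13.5 points and positive for 8 of 9 targets, with Tfam at -7.05 points (adjusted p = 0.0117, exact sign-flip test). By site, members were purer than insertions of 20 bp or more at 19 of 21 and purer than 1 bp insertions at 6 of 21. The share of members rests on the gains of 2 bp. Pooled over the sgRNA libraries, 9391 of 9722 reads with 2 bp were pure, against 132 of 520 with 7 to 19 bp. The order of the 3 classes is thus not a steady fall of the pure share with length.

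Most members would shift a reading frame. A net gain that is not a multiple of 3 was found in 85.9% of the 12501 reads. The share was 86.9% among pure insertions and 72.9% among those with template loss. Over the 42 libraries with at least 20 member reads it had a median of 89.6% (62.5 to 100). The 1759 in-frame member reads were 5.93% of the 29650 in-frame indel reads with sgRNA, and the 3 bp gains alone were 5.08%. Members were 3.85% of all 324853 indel reads with sgRNA. In pooled reads a frameshift was thus less frequent among members than among indel reads as a whole, and it is not particular to this class. The share of indel reads that were in-frame members reached 3.38% at Lats2-sg2 in PTG at 2 wpi, where 41 of 113 member reads gained 3 bp, and had a median of 0.201%. Whether a cut lies in coding sequence was not examined.

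Of the 21 sites, 10 were sequenced in more than 1 sgRNA library, 33 libraries in all, which shows which alleles came back. Of 55 pure alleles, 28 (50.9%) were found in at least 2 libraries of their site and held 97.3% of the pure reads there. Of 96 alleles with template loss, 14 (14.6%) came back and held 31.2% of the reads with loss. The pure alleles that came back gained 2 to 7 bp. The alleles with loss that came back had a net gain of 2 to 4 bp and lost 1 to 3 bp. Of the 82 alleles with loss found in 1 library only, the losses ran from 1 to 35 bp and 14 had at least 10 reads, the highest 25. Alleles with few reads have less chance of being read again, so these counts depend on depth as well as on the allele. They also depend on how an allele is defined. A pure allele is set by its net length alone and may pool several sequences. An allele with loss must also match in the bases lost on each side. The recurrence of both kinds therefore cannot be compared on equal terms.

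**Figure D4:**
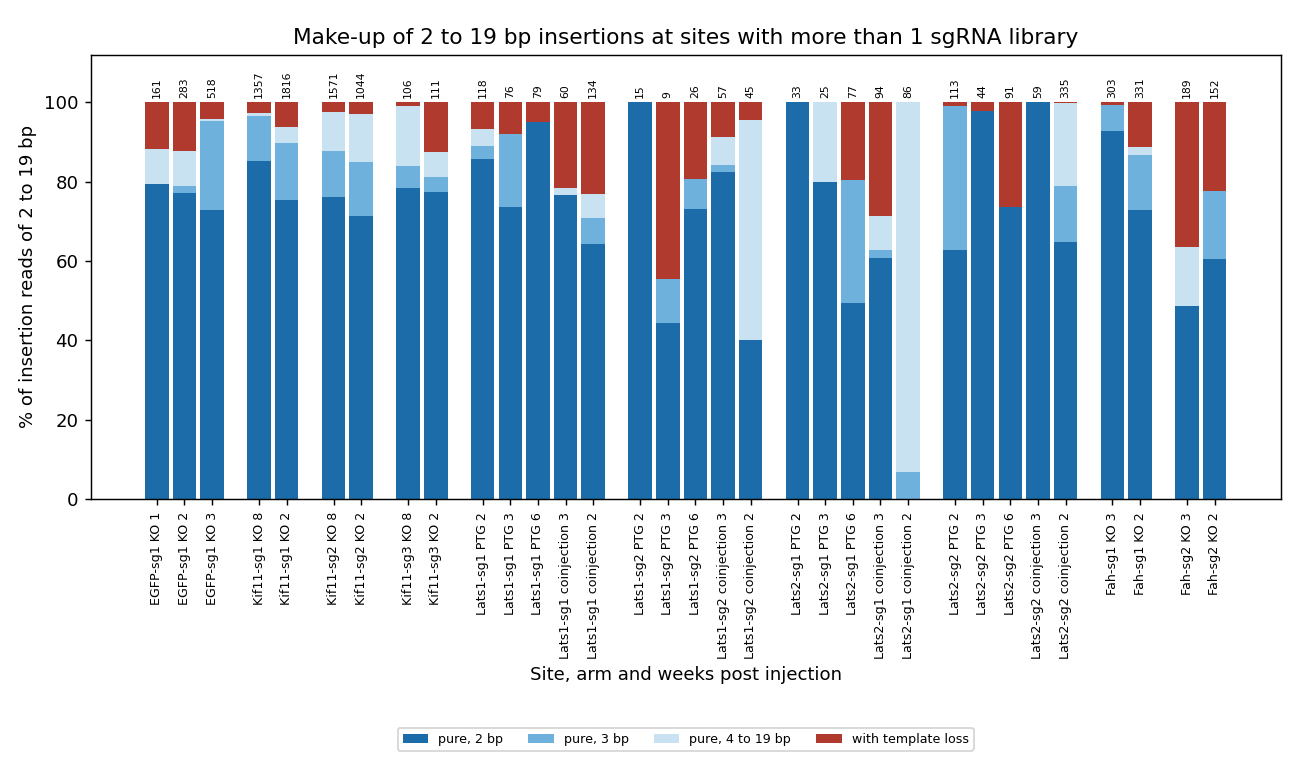
Make-up of the member reads (vertical axis, percentage of insertion reads of 2 to 19 bp) in the 33 sgRNA libraries of the 10 sites with more than 1 sgRNA library, by site, arm and weeks post injection (horizontal axis). The number over each bar is its member reads. Pure 2 bp insertions fill over 50% of 28 of the 33 bars, with none in coinjection Lats2-sg1 at 2 wpi.

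Between a later and the first time of the same site and arm, the share of indel reads passed Fisher's exact test in 9 of 19 comparisons, 1 higher and 8 lower at the later time (two-sided, Benjamini-Hochberg over 114 tests of 6 indel classes). In that family 52.6% of tests passed in either direction, so the count of members lies near the background. The 2 later times of EGFP-sg1 and of each PTG site are set against the same first library. At Lats2-sg2 in coinjection the share was 0.987% at 3 wpi (59 of 5975 indel reads) and 5.78% at 2 wpi (335 of 5797), a difference of -4.79 points (-5.46 to -4.15, adjusted p = 8.76e-50, Fisher's exact test). At the same site in PTG it was 9.32% at 2 wpi, 1.86% at 3 wpi and 1.29% at 6 wpi, with differences from 2 wpi of -7.45 points (-9.28 to -5.82) at 3 wpi and -8.03 points (-9.81 to -6.49) at 6 wpi. In both arms this site thus had its highest share of indel reads at 2 wpi. In PTG 5.90%, 16.9% and 35.5% of its reads were edited at 2, 3 and 6 wpi. Over all reads, members there were 0.549%, 0.315% and 0.456%. On the first sequencer tile alone 4 of the 19 time comparisons passed, and with each distinct allele counted once 0 passed, as did 0 of the 8 comparisons of arms.

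The named alleles differed in which libraries held them. At Lats2-sg2 the pure 2 bp insertion had 59 reads in coinjection at 3 wpi (0.987% of indel reads) and 217 at 2 wpi (3.74%), the pure 4 bp insertion 0 and 70 reads, and the pure 3 bp insertion 0 and 47 reads. In PTG the pure 2 bp insertion had 71, 43 and 67 reads at 2, 3 and 6 wpi, which were 5.85%, 1.82% and 0.947% of 1213, 2361 and 7072 indel reads, and the pure 3 bp insertion had 41, 0 and 0 reads. The 2 bp allele was thus the only 1 of the 3 named alleles seen in all 5 sgRNA libraries of the site. At Lats2-sg1 in PTG the share was 2.74% at 2 wpi (33 reads, all pure gains of 2 bp), 0.904% at 3 wpi and 1.25% at 6 wpi. Over indel reads both later times were lower (adjusted p = 0.000123 at 3 wpi and 0.00117 at 6 wpi, Fisher's exact test). With gains of 3 to 19 bp alone the signs turned, to 0.181 points at 3 wpi and 0.634 points at 6 wpi. Over all reads, members were 0.159%, 0.106% and 0.305% at 2, 3 and 6 wpi, so the share was highest at 6 wpi. In the same libraries 5.79%, 11.8% and 24.4% of reads were edited, and the part of editing in these changes was not tested.

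At EGFP-sg1 the share was 3.00% at 1 wpi (2.56 to 3.49), 2.35% at 2 wpi (2.09 to 2.64) and 4.10% at 3 wpi (3.76 to 4.46), so it had no single direction over time. It was 1.10 points higher at 3 wpi than at 1 wpi (0.509 to 1.66, adjusted p = 0.00108, Fisher's exact test) and differed by -0.648 points at 2 wpi from 1 wpi (adjusted p = 0.0309), a call lost in 7 of 12 alternatives. The pure 2 bp insertion had 128, 218 and 377 reads at 1, 2 and 3 wpi, which were 2.38%, 1.81% and 2.98% of 5367, 12034 and 12630 indel reads, and net gains of 3 bp, chosen after their values were seen, had 0, 9 and 120 reads. The frameshift share of members was accordingly 93.2% at 1 wpi, 92.2% at 2 wpi and 75.9% at 3 wpi.

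At the Kif11 sites, set 8 against 2 wpi, the shares lay within 1 point of each other. Kif11-sg2 had 20.54% at 8 wpi and 20.47% at 2 wpi, a difference of 0.0667 points (-1.37 to 1.49) that did not pass. Kif11-sg1 was lower at 8 wpi, 9.30% against 10.1% at 2 wpi, a difference of -0.753 points (-1.40 to -0.107, adjusted p = 0.0452, Fisher's exact test), a call lost in 7 of 12 alternatives. Kif11-sg3 had 3.43% at 8 wpi and 4.16% at 2 wpi, with a difference of -0.721 points (-1.73 to 0.266) that did not pass.

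Of the Fah sites, sg1 had 1.64% at 3 wpi and 1.99% at 2 wpi, a difference of -0.349 points (-0.632 to -0.0705, adjusted p = 0.0309, Fisher's exact test), a call lost in 7 of 12 alternatives. Fah-sg2 had 2.07% at 3 wpi and 1.93% at 2 wpi, 0.142 points apart (-0.284 to 0.562). At Lats1 no time comparison passed. Lats1-sg1 had 2.18%, 2.21% and 2.43% in PTG at 2, 3 and 6 wpi, and 2.35% at 3 wpi and 2.55% at 2 wpi in coinjection. Lats1-sg2 had 2.26%, 2.02% and 1.48% in PTG from 15, 9 and 26 member reads, a depth at which a difference of -2.29 to 0.336 points between 6 and 2 wpi could not be told from 0.

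Between arms, PTG had a higher share of indel reads than coinjection in 3 of 8 comparisons of the same Lats site and time. The other 5 did not pass (Fisher's exact test, two-sided, Benjamini-Hochberg over 48 tests, of which 56.2% passed in either direction). At Lats2-sg2 the share was 9.32% in PTG and 5.78% in coinjection at 2 wpi, 3.54 points apart (1.90 to 5.39, adjusted p = 3.87e-05, Fisher's exact test). At 3 wpi it was 1.86% in PTG and 0.987% in coinjection, 0.876 points apart (0.325 to 1.54, adjusted p = 0.00412, Fisher's exact test). At Lats2-sg1 it was 2.74% in PTG and 0.953% in coinjection at 2 wpi, 1.79 points apart (0.976 to 2.89, adjusted p = 5.79e-06, Fisher's exact test), and 0.904% and 1.01% at 3 wpi, which did not pass. The Lats2-sg1 difference at 2 wpi turned to -0.953 points with gains of 3 to 19 bp alone. The PTG libraries of these sites at 2 wpi had 5.79% and 5.90% of reads edited at sg1 and sg2, against 39.4% and 39.8% in coinjection, and the part of editing depth in the result was not tested. Over all reads, members were less frequent in PTG in the 3 comparisons that passed. At 2 wpi they were 0.159% in PTG and 0.375% in coinjection at Lats2-sg1, and 0.549% and 2.30% at Lats2-sg2. At Lats2-sg2 at 3 wpi they were 0.315% and 0.350%. At Lats1 the 4 differences in the share of indel reads lay between -0.586 and -0.137 points, the widest interval reaching from -1.80 to 1.28.

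The make-up of the class also differed between libraries. The pure share among members passed in 12 of 27 comparisons (44.4%), 6 higher and 6 lower in the later or PTG library (Fisher's exact test, two-sided, Benjamini-Hochberg over 27). The pure share of other insertion classes was not tested in these comparisons. The count therefore has no background and is not shown to be particular to members. At Fah-sg1 it was 99.3% at 3 wpi and 88.8% at 2 wpi (10.5 points, 7.10 to 14.4, adjusted p = 5.53e-08, Fisher's exact test), while at Fah-sg2 it was 63.5% and 77.6% (-14.1 points, -23.3 to -4.37, adjusted p = 0.0168). At Fah-sg2 the sign turned, to 23.2 points with each allele counted once and 20.4 points with gains of 3 to 19 bp, and the call was lost in 2 more of 10 alternatives. The difference between these 2 guides to 1 gene was not tested.

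Other sites gave both directions as well. The pure share was higher at EGFP-sg1 at 3 wpi (95.8% against 88.2% at 1 wpi), though the sign turned in 4 of 10 alternatives (-6.67 to -1.21 points). It was higher at 8 wpi at Kif11-sg1 (97.2% against 93.8% at 2 wpi, a call lost in 4 of 10 alternatives) and Kif11-sg3 (99.1% against 87.4%, lost in 4 of 9), and did not pass at Kif11-sg2 (97.6% against 96.9%). It was lower at Lats2-sg2 in PTG (73.6% at 6 wpi against 99.1% at 2 wpi), Lats2-sg1 in PTG (80.5% against 100% at the same times), Lats2-sg1 in coinjection (71.3% at 3 wpi against 100% at 2 wpi) and Lats1-sg2 in PTG (55.6% at 3 wpi, from 9 reads, against 100% at 2 wpi, from 15). In the same order, these calls were lost in 1 of 10, 4 of 8, 1 of 10 and 4 of 6 alternatives. Between arms the pure share was higher in PTG at Lats1-sg1 at 2 wpi (93.2% against 76.9% in coinjection) and Lats2-sg1 at 3 wpi (100% against 71.3%), and lower at Lats1-sg2 at 3 wpi (55.6%, from 9 reads, against 91.2%). In this order the calls were lost in 5 of 10, 3 of 10 and 5 of 8 alternatives, and the sign of the last turned in 1 more. Some of these rest on 1 allele: at Lats2-sg1 in coinjection at 3 wpi 27 member reads had template loss, and 25 of these were an allele that lost 3 bp before the cut with a net gain of 2 bp. At Lats2-sg2 in PTG at 6 wpi 24 had template loss, and 21 of these were an allele that lost 2 bp after the cut with a net gain of 3 bp. Both alleles were named after their values were seen. With only indels that keep to within 5 bp of the cut, 3 of the 27 comparisons passed, and with each distinct allele counted once 0 passed.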

How the data were processed

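Each library is an amplicon around 1 cut site, made by PCR from hepatocyte genomic DNA. The submitters' processing notes name bcl2fastq, Bowtie2, deepTools, R 4.2.1 and mm10, without roles, and the tool that set each junction is not stated there. The 65 deposited tables used hold 1 line per read with template positions and lengths in bp, per the file headers. They are no counts or normalised values, and 2 further tables of the Tfam-sg2-3 amplicon against a shorter template were left out. From these, reads were counted here by net length into 6 classes (gains and losses of 1, 2 to 19 and 20 bp or more), and an indel read is a read whose net length is not 0. A member is pure if no template base is missing. The frame was taken from the net length.

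Pairs of libraries were tested with Fisher's exact test (two-sided) and Benjamini-Hochberg adjustment at 0.05, checked on simulated data, and targets with exact sign-flip tests. The simulated reads were drawn independently, so that check covers neither PCR copies nor the spread between animals. Each site has its own EV library, taken at 2 wpi, and the Lats sites used coinjection against it. Shares within members used libraries with at least 20 member reads. All targets and sites are named. At most 3 alleles a site are named, those leading its first sgRNA library (for Lats sites, the 2 wpi library of coinjection) with 20 reads or more, and other named alleles are marked as such. The members, lists and tests were chosen with earlier results of these data known. Depth was 2290 to 27974 reads per library, and the 95% interval of a share of indel reads had a median half-width of 0.396 points (42 libraries). The alternatives changed the allele minimum, the length limits, the distance from the cut, the indel reads used, the leading allele, the sequencer tile and the sites, counted each allele once, and took other units. RefSeq gave gene positions (GRCm38.p6, that is mm10) for 8 of 9 targets, matched by symbol. Tests used scipy 1.17.1 in Python 3.11.15, with pandas 2.3.3, numpy 2.4.6 and matplotlib 3.10.9.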

Additional observations from a re-analysis of the deposited data

Results flagged for a closer look

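The change in the share of indel reads from 2 to 3 wpi, in points, differed between arms at both Lats2 sites, by intervals of the difference that did not include 0. At Lats2-sg1 the change was -1.84 points in PTG and 0.0569 points in coinjection, which are -1.90 points apart (-3.06 to -0.959). At Lats2-sg2 it was -7.45 points in PTG and -4.79 points in coinjection, which are -2.66 points apart (-4.60 to -0.894). These intervals compare 4 libraries each and cover counting error only, and the other 6 such differences tested, at Lats1, Kif11 and Fah, had intervals that included 0. The Lats2-sg1 libraries behind it had 25 and 33 member reads in PTG at 3 and 2 wpi, and 94 and 86 in coinjection. With gains of 3 to 19 bp alone, chosen after seeing the data, the sign at Lats2-sg1 turned: the change was 0.181 points in PTG and -0.824 points in coinjection, 1.00 points apart (0.612 to 1.34). Without the leading allele of each library the Lats2-sg1 changes were -0.151 points apart, with an interval that included 0 (-0.528 to 0.128). At Lats2-sg2 the same 2 alternatives gave -1.36 points (-2.58 to -0.385) and -1.52 points (-2.82 to -0.469). The arms began from different shares at this site, 9.32% in PTG and 5.78% in coinjection at 2 wpi, against 1.86% and 0.987% at 3 wpi. Changes relative to the share at 2 wpi were not tested, so a larger change in points is not shown to be a larger relative change.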

How the results depend on the processing

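Each arm, site and time is 1 library, so no value carries the spread between animals, and no library could be left out in turn. Libraries could not be paired by animal, because each group has 1 library and the labels give no replicate numbers. The sign-flip tests paired libraries of the same site, or insertion classes within a library. The sgRNA minus EV difference over targets kept its sign and an exact sign-flip p under 0.05 under every alternative run, from 0.660 points with lengths of 3 to 19 bp to 2.79 points with the site as the unit, and leaving out each target gave 1.81 (without Kif11) to 2.78 points. Of 21 sites 20 were higher with lengths of 3 to 19 bp and without the leading allele, and every site kept was higher under the other alternatives (17 of 17 without sites under 5000 reads). Of 106 recomputed summary values, 88 stayed close to the reported one and 18 moved.

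Counting each distinct allele once left 0 of the time comparisons, 0 of the arm comparisons and 0 of the pure share comparisons past Fisher's exact test (0 also at an unadjusted p under 0.05), raised the median share of indel reads to 5.32%, and lowered the median pure share to 50.0% and the median frameshift share to 75.0%. This alternative has far fewer units per library by construction. With lengths of 3 to 19 bp these medians were 0.562%, 75.7% and 46.2%, and without the leading allele of each library 0.585%, 63.9% and 55.4%, so they rest on the 2 bp insertion. Leaving 1 bp indels out of the indel reads gave 8.33%, and leaving out alleles under 10 reads gave a pure share of 100%. Pure share comparisons that passed were 6 with lengths of 2 to 10 bp, 3 within 5 bp of the cut and 6 on the first tile alone, which also left 4 time comparisons. The causes of these moves were not tested beyond what each alternative leaves out.

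Signs of single comparisons that had passed turned in 16 cases. For the share of indel reads they were EGFP-sg1 at 3 against 1 wpi (-2.59 points with alleles once), PTG Lats2-sg1 at 3 against 2 wpi (0.263 with alleles once, 0.181 with 3 to 19 bp, 0.182 without the leading allele) and at 6 against 2 wpi (0.634 with 3 to 19 bp, 0.638 without the leading allele), and Lats2-sg1 in PTG against coinjection at 2 wpi (-0.953 with 3 to 19 bp, -0.0671 without the leading allele). For the pure share they were EGFP-sg1 at 3 against 1 wpi (-1.98 with alleles under 10 reads left out, -6.67 with alleles once, -1.21 with 2 to 10 bp, -2.18 within 5 bp), Fah-sg2 at 3 against 2 wpi (23.2 with alleles once, 20.4 with 3 to 19 bp) and Lats1-sg2 in PTG against coinjection at 3 wpi (5.45 within 5 bp). The Lats2-sg1 change from 2 to 3 wpi, PTG minus coinjection, turned to 1.00 points with 3 to 19 bp. In 70 further cases the sign held and the comparison no longer passed, and in 22 a comparison passed only under the alternative. Leaving out Kif11, chosen after seeing the data, moved none of 5 values past these limits.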

Other observations

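The member reads with sgRNA lay on both of the 2 tiles of the flow cell named in the read identifiers, 6091 on the first and 6410 on the second. Within a library the share of indel reads differed between tiles by a median of 0.335 points and at most 1.66 points.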
